A study of Canis lupus familiaris with 60 samples.

Results

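Skin that had carried a house dust mite patch for 24 hr was compared with skin under a saline patch in Beagle dogs sensitized to this mite. The comparison was fixed by the labels and rests on 11 of the 60 arrays of the study, 5 from allergen sites (dogs 2838, 2840, 2841, 2853 and 2855) and 6 from saline sites (the same dogs and dog 2839), so that 5 dogs gave both sites. The dogs, aged 2 to 3 years, had been sensitized to Dermatophagoides farinae through the skin. The allergen was 75 mg of a paste of this mite in saline, against 50 µl of saline at the control site. Lidocaine was used at the sites, which lay on the clipped chest, and each biopsy was an 8 mm punch of whole skin, so that epidermis, dermis and infiltrating cells were measured together. Untreated 0 hr skin of the 6 sensitized dogs, their 6 hr patch sites (12 arrays) and the 24 hr sites of 6 nonsensitized dogs, which received the same patches (12 arrays), served for comparison. The dogs are an experimental model in laboratory Beagles, not client-owned dogs with spontaneous disease.

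Atopic dermatitis is an itching skin disease in which allergens that pass the skin meet an immune system biased towards type 2 cytokines, IL-4, IL-13 and IL-31, made by T helper cells and other cells. CCL17 attracts such T cells, and IL-13 acts through its receptors on keratinocytes. The outermost epidermal layer, the stratum corneum, forms the barrier. Its cells are each enclosed in a cornified envelope, for which proteins such as loricrin and the filaggrin family are needed. A patch test brings the allergen onto intact skin and reads the first day of this reaction.

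The sixth allergen array, that of dog 2839, was left out, since low RNA integrity and a poor signal had been noted for it. Its share of spots clearly above background was 67.65% and its median signal 70.97. The 11 arrays used had shares of 70.36% to 77.43% and median signals of 104.27 to 142.93. All 11 arrays measured skin: KRT1, a keratin of differentiating keratinocytes, lay at 16.17 to 17.15 on the log2 scale and the dermal genes COL1A1, COL1A2 and DCN at 14.80 to 17.93. Values below are log2 normalized intensities, a difference is allergen minus saline, and a probe was called when limma gave an adjusted p below 0.05 and the change was at least 1.5-fold.

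Of 44196 probes tested, 129 (0.292%) were called, 83 higher (0.188%) and 46 lower (0.104%) at the allergen sites, with log2 differences from -2.24 to 3.54. Before adjustment, 5128 probes had p below 0.05. The difference had the same direction in all 5 pairs of sites for 126 of the 129 probes, which the choice of probes on these same arrays favours. In 57 of the 129 the values at allergen and saline sites did not overlap, which 628 of all probes (1.42%) showed. With the dog as a block in the same fit, 494 probes (1.12%) were called, 333 higher (0.753%) and 161 lower (0.364%), and 124 of the 129 were among them. Without dog 2855 only 34 probes were called, without dog 2838 only 55 and without dog 2839, which gave only a saline array at 24 hr, only 58.

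Only a minority of the probes carry a gene name. Among 1261 named genes, each represented by its brightest probe, 51 (4.04%) were called, 31 higher (2.46%) and 20 lower (1.59%), and 114 (9.04%) with the dog as a block, 79 higher (6.26%) and 35 lower (2.78%). Of the 51, 48 are named in the study's own table of genes, which was chosen from these same arrays by their response at 24 hr. Their number is therefore not independent evidence. Among the 864 genes named through RefSeq alone, 8 (0.926%) were called, with CCL17, IL13RA2, HSD11B1 and CD28 among those higher (0.579%) and AOX4, CGN and PRNP lower (0.347%). With the dog as a block this number was 36 (4.17%). Of all named genes 56.5% had a difference above 0. In whole skin, fewer cells of a type and less RNA per cell cannot be told apart, which holds for every difference given here.

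CCL17, the chemokine that recruits CCR4-bearing T helper 2 cells, showed the largest rise of any named gene. Its values at the allergen sites of dogs 2838, 2840, 2841, 2853 and 2855 were 11.35, 10.41, 10.29, 13.80 and 12.37. At the saline sites the lowest was 7.92, the median 8.31 and the highest 11.36, the last in dog 2853. The groups therefore overlapped through this 1 dog, while within each pair the allergen site was higher by 2.26 to 3.72. The rise was 2.86 ± 0.65 (SE), or 7.27-fold (adjusted p = 0.0199, limma). The call was lost without dog 2838, 2839 or 2855, with an adjusted p of 0.181 without dog 2855, and with the dog as a block the adjusted p was 1.34e-05. Untreated skin of dog 2853 already held CCL17 at 10.78, against 6.97 to 7.37 in the other 5 dogs.

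Of 21 chemokine ligands tested, CCL17 alone was called in the unpaired fit, while 19 lay above 0 and the median difference was 0.52, against 0.042 over all named genes. With the dog as a block CCL24, an eosinophil attractant, and CCL3, a chemokine of macrophages, were called too (adjusted p = 0.0151 and 0.0184), with differences of 1.13 and 0.65. CCL20, CXCL8 and CCL4 had differences of 1.44, 1.41 and 1.07 that did not pass (adjusted p = 0.223, 0.573 and 0.327). None of 7 chemokine receptors was called, 5 of them had an unadjusted p below 0.05, and their median was 0.36.

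**Figure D1:**
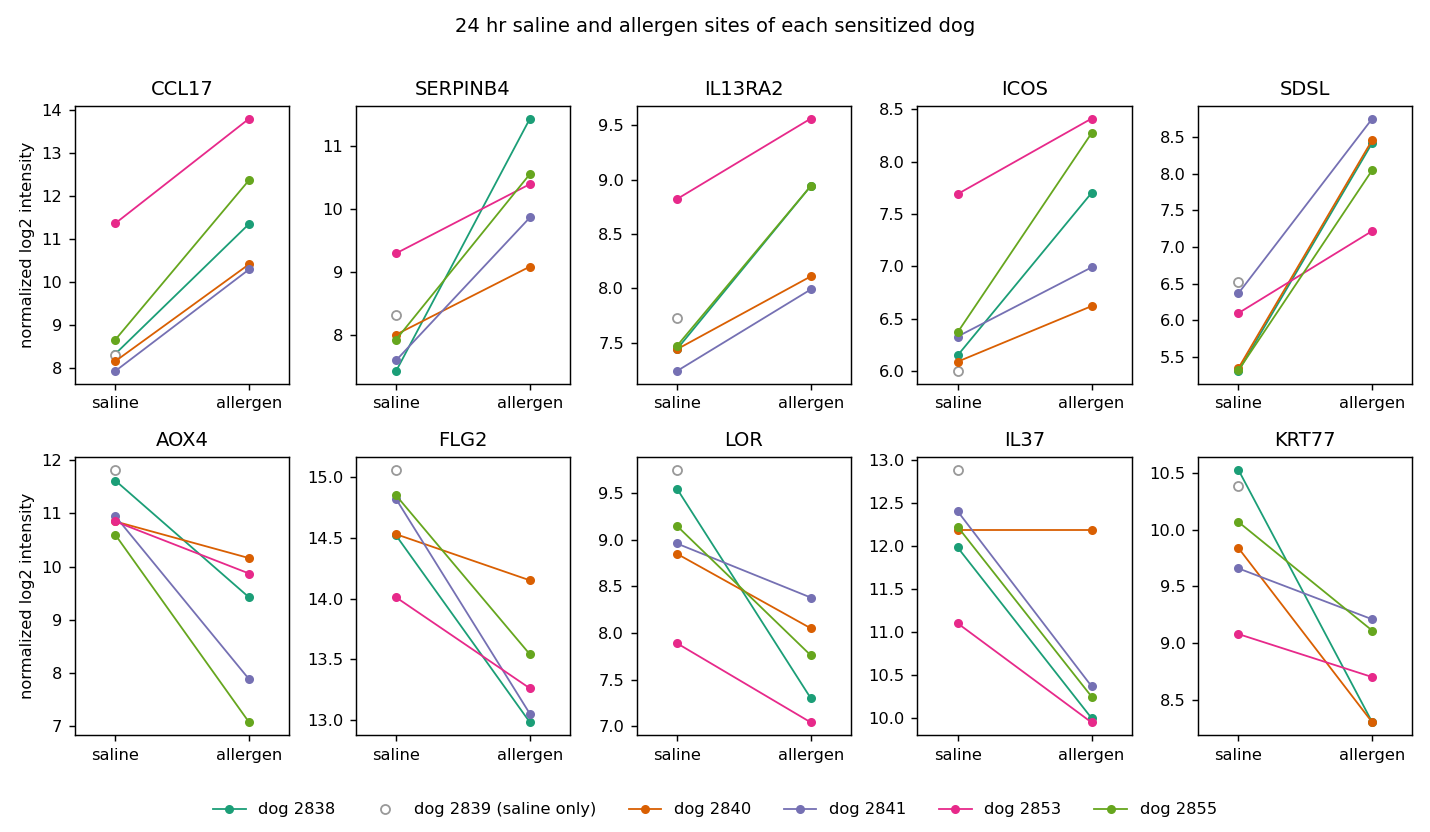
Log2 normalized intensity of the genes named in the panel titles at the 24 hr saline and allergen sites of sensitized dogs, with a line joining the sites of 1 dog and a single point for the saline site of dog 2839. CCL17 at the allergen site is above the saline site of the same dog in all 5 pairs, although the saline site of dog 2853 (11.36) is as high as the allergen site of dog 2838 (11.35).

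IL13RA2, the decoy receptor that binds IL-13 without the usual signal and is itself induced by that cytokine in keratinocytes, rose 2.03-fold (1.02 ± 0.26 SE, adjusted p = 0.0419, limma). The allergen sites of dogs 2838, 2840, 2841, 2853 and 2855 gave 8.94, 8.11, 7.99, 9.56 and 8.94, and the saline sites 7.24 at the lowest, 7.45 at the median and 8.82 at the highest. Here too the highest saline value came from dog 2853 and lay inside the allergen range. The gene has 3 probes, with differences of 1.02, 0.92 and 0.91. The unpaired call was lost without dog 2716, 2838, 2839, 2840, 2845 or 2855, with an adjusted p of 0.257 without dog 2855, and under scaling to the 75th percentile (0.0649). It was 0.00233 with the dog as a block in the joint fit, and 0.0943 with the dog as a block on the 10 paired arrays alone. In untreated skin IL13RA2 ranged from 5.72 to 6.08, below every 24 hr patch site of these dogs, saline included.

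The cytokines themselves were low. IL13 was 6.07, 5.28, 5.48, 8.06 and 7.41 at the allergen sites in the same order of dogs, against 4.5, 5.17 and 6.51 as the lowest, median and highest saline value. Only 3 of its 6 saline arrays were well above background, and the difference of 1.26 was not called in the unpaired fit (adjusted p = 0.142) but was with the dog as a block (0.02). It passed the filter through the allergen sites alone, so this p gives no support of its own. IL31, the cytokine of itch, differed by 0.56 (adjusted p = 0.028), short of 1.5-fold. With all 60 arrays, the left-out one included, IL31 differed by 0.78 (adjusted p = 0.00326, limma), past 1.5-fold. The sizes moved with the processing, from 0.29 to 0.99 for IL31 and from 0.73 to 1.94 for IL13. Of 5 genes on the list of type 2 cytokines, their receptors and transcription factors, 1 was called (IL13RA2) and 2 with the block (IL13RA2 and IL13). The list did not move one way: GATA3, the transcription factor of type 2 T cells, and IL33, an epithelial alarmin, had differences of -0.56 and -0.24 (adjusted p = 0.136 and 0.958). IL13, IL31, IL17F, S100A8, SELE, CTLA4 and DMKN are named outside the rule for named genes, after their values were seen.

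Of 7 T cell markers 2 were called, both higher. ICOS, a costimulator of activated T cells, rose 2.23-fold (1.16 ± 0.25 SE, adjusted p = 0.0158, limma), from a saline median of 6.24 (6.00 to 7.69) to 7.70, 6.62, 6.99, 8.41 and 8.27 at the allergen sites. CD28, the main costimulatory receptor of T cells, rose 1.68-fold (0.75 ± 0.13 SE, adjusted p = 0.00176). All 7 lay above 0, with a median of 0.50, and 4 of the 7 stand in the study's table, chosen on these arrays. CTLA4, the inhibitory counterpart of CD28, had a difference of 1.03 that was not called in the unpaired fit (adjusted p = 0.184). It was called with the dog as a block (adjusted p = 0.0039) and with the slide as a fixed block (adjusted p = 0.0456). IRF4, a transcription factor of activated lymphocytes, rose by 0.91 ± 0.22 (SE, adjusted p = 0.0332). Without dog 2838, 2839 or 2855 ICOS and IRF4 were not called, with an adjusted p of 0.209 and 0.355 without dog 2855, where CD28 was not called either (0.0646). The size of these low signals moved with the normalization, that of CD28 to 1.21 under scaling to the 75th percentile and to 0.39, short of 1.5-fold, under normexp with quantile scaling. IRF4 was not called under either (1.21, adjusted p = 0.059, and 0.54).

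MHC class II genes, which present peptides to helper T cells, differed in calls between both fits. Of 10 tested members of the MHC class II and costimulation list, 6 stand in the study's table, chosen on these arrays. All 10 were higher, with a median difference of 0.70 and a range of 0.34 to 0.96. None was called in the unpaired fit, where 8 had an unadjusted p below 0.05, and 9 were called with the dog as a block. CD74, the chaperone of class II molecules, stood at 9.32, 8.67, 8.99, 10.44 and 9.58 at the allergen sites and at 7.99, 8.32 and 9.32 (lowest, median, highest) at the saline sites (adjusted p = 0.101 unpaired and 0.00387 blocked). HLA-DOA had 0.0658 and 0.000853. The median of the list was 1.06, 0.31, 0.20, 0.76 and 1.22 in dogs 2838, 2840, 2841, 2853 and 2855. Macrophage and dendritic cell markers moved in the same samples: their mean level ranged from 8.73 to 9.44 at the allergen sites and from 8.01 to 8.96 at the saline sites, and 9 of 10 lay above 0, none called in the unpaired fit and CD209 with the block. The part of these cells in the class II levels was not tested.

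Further inflammatory lists showed many members above 0 and few calls. S100A8, a calcium-binding alarmin of neutrophils and stressed keratinocytes, was 17.62, 17.73, 17.51, 16.66 and 17.35 at the allergen sites and 14.21 to 15.76 at the saline sites. The sites did not overlap, yet with a difference of 2.44 ± 0.69 (SE) the adjusted p was 0.0858 unpaired and 0.00285 with the dog as a block. SELE, the adhesion molecule of activated endothelium, did not overlap either (1.52, adjusted p = 0.062 and 0.0151). SELPLG, a selectin ligand on leukocytes, rose by 0.97 ± 0.20 (SE, adjusted p = 0.00726). MMP25, a membrane metalloproteinase of neutrophils, rose by 0.71 ± 0.15 (SE, adjusted p = 0.00827), but only 3 of its 6 saline arrays were well above background, so that it passed the filter through the allergen sites alone and its p gives no support of its own. SELPLG was lost without dog 2840 (adjusted p = 0.0875) or 2855, and MMP25 without dog 2855 (0.217). Under normexp with quantile scaling both fell short of 1.5-fold (0.45 and 0.36), and under scaling to the 75th percentile MMP25 had 1.45 with an adjusted p of 0.0576.

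Neutrophil and eosinophil markers had a mean level of 8.15 to 8.30 at the allergen sites and of 6.84 to 7.80 at the saline sites. Of the 6 genes 5 lay above 0, and 3 were detected on all arrays. The gap came mainly from S100A8 and from MMP9 (1.22, adjusted p = 0.207), while CXCR2 and ELANE, both markers of neutrophils, had differences of 0.04 and -0.01. Their part in the rise of CCL17 and in the other rises was not tested. Of 12 TNF ligands, receptors and feedback genes (median 0.47) none was called, and with the dog as a block CD40 and LTB, a lymphotoxin of lymphocytes, were called (LTB 1.02, adjusted p = 0.159 and 0.00388). Of 8 genes of the IL-1 family and inflammasome, 7 had an unadjusted p below 0.05, and IL37, described below, was called as lower. IL18, IL18BP and CASP4 differed by 0.64, 1.46 and 1.22. They were not called in the unpaired fit but were with the block, at adjusted p of 0.00948, 0.0239 and 0.0123. The 6 interferon response genes (median 0.53), 3 Fc gamma receptors (0.43), 7 pattern recognition genes (0.29) and 6 mast cell and IgE receptor genes (0.41) had no call. The 6 complement genes (median 0.34) and the 5 prostaglandin and leukotriene enzymes (-0.09) had no call in the unpaired fit and 1 each with the block, CFP and PTGES. The 9 genes of IL-6 signalling and acute phase had none in either fit (0.08), and MMP25, with the limit given above, was the 1 call among 11 matrix proteases and inhibitors (0.09).

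Among the epithelial genes SERPINB4, a serine protease inhibitor of squamous epithelium, rose on 4 of 4 probes. It was 11.44, 9.09, 9.87, 10.40 and 10.56 at the allergen sites, against 7.43, 7.97 and 9.30 as the lowest, median and highest saline value. Dog 2840, at 9.09, lay below the highest saline site. The difference was 2.17 ± 0.31 (SE, 4.51-fold, adjusted p = 3.54e-05, limma), and its 4 probes gave 2.15 to 2.30, all called. SDSL, an enzyme related to serine dehydratase, rose 5.10-fold (2.35 ± 0.39 SE, adjusted p = 0.000737). Its allergen values of 8.42, 8.46, 8.75, 7.22 and 8.05 all lay above the saline sites (5.31 to 6.52). Both calls were kept without any one dog. Among 10 enzymes of amino acid, nucleotide and one-carbon metabolism SDSL was the 1 called, and all 10 lay above 0 (median 0.34). All 10 stand in the study's table, chosen on these arrays.

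A2ML1, a protease inhibitor of the upper epidermis, was well above background at none of the 6 saline sites and at the 5 allergen sites reached 6.75, 5.57, 6.41, 5.74 and 6.03. Against the lowest signals above background it was at least 2.53-fold higher, a bound that holds on the scale used here only (adjusted p of the fitted difference 1.45e-06). The fitted difference was 2.57 under scaling to the 75th percentile and 0.73 under normexp with quantile scaling. FAM3D, a secreted cytokine-like protein of epithelia, rose 2.38-fold (1.25 ± 0.18 SE, adjusted p = 4.71e-05) from 5.44 to 5.93 at the saline sites to 6.44 to 7.58 at the allergen sites. IL17F, a cytokine of T helper 17 cells that acts on keratinocytes, rose by 1.10 ± 0.20 (SE, adjusted p = 0.00176), with 1 of 6 saline arrays above background. The size of this rise is therefore poorly determined, and it was 2.29 under scaling to the 75th percentile and 0.57, short of 1.5-fold, under normexp with quantile scaling. A2ML1 and IL17F passed the filter through the allergen sites alone, so their p gives no support of its own. FAM3D kept its call without any one dog.

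SLC26A4, the anion exchanger pendrin, rose 3.38-fold (1.75 ± 0.36 SE, adjusted p = 0.00736) without overlap of the sites. SLITRK4, a transmembrane protein of the nervous system, rose 2.75-fold (adjusted p = 0.00516). A further probe well above background on all 11 arrays rose by 1.58. PHEX, a membrane endopeptidase, and PTPRZ1, a receptor tyrosine phosphatase, rose 2.38-fold and 2.39-fold (adjusted p = 0.00726 and 0.0429). HSD11B1, which turns cortisone into cortisol, rose 1.82-fold (0.86 ± 0.21 SE, adjusted p = 0.033). Each of the 5 lost its call without dog 2855 (adjusted p = 0.163 for SLC26A4, 0.071 for SLITRK4, 0.098 for PHEX, 0.275 for PTPRZ1 and 0.256 for HSD11B1). PHEX was lost without dog 2841 as well. Under scaling to the 75th percentile and under normexp with quantile scaling the differences were 2.30 and 1.04 for SLC26A4 and 1.89 and 0.66 for PHEX, all called. PTPRZ1 was lost without any of dogs 2838, 2839, 2841, 2845, 2847 and 2853 and under scaling to the 75th percentile (0.0603), and HSD11B1 without any of dogs 2838, 2839, 2840, 2841 and 2845.

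Of 12 tested genes of the cornified envelope 5 were called, all lower. None of the 12 lay above 0, 10 had an unadjusted p below 0.05, and the median difference was -0.58. Of the 12, 10 stand in the study's table, chosen on these arrays, and the 4 whose name came from RefSeq had no call. FLG2, a filaggrin relative of the cornified layer, was 12.98, 14.15, 13.05, 13.26 and 13.54 at the allergen sites of dogs 2838, 2840, 2841, 2853 and 2855, against a saline median of 14.67 (14.01 to 15.06). Dog 2840 alone reached the saline range. FLG2 fell by 1.24 ± 0.23 (SE, 2.36-fold, adjusted p = 0.00371, limma), and a further probe by 1.46. LOR, which encodes loricrin, the main protein of the envelope, fell by 1.32 ± 0.29 (SE, adjusted p = 0.0172). It was 7.30, 8.05, 8.38, 7.04 and 7.76 at the allergen sites and 7.89, 9.06 and 9.75 (lowest, median, highest) at the saline sites.

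KPRP, a proline-rich keratinocyte protein, fell 2.18-fold without overlap (9.67 to 10.23 against 10.33 to 11.55, adjusted p = 0.0428). ASPRV1, the protease that processes filaggrin, fell by 0.88 ± 0.19 (SE, adjusted p = 0.0124). DMKN, a secreted protein of the granular layer, fell by 0.70 ± 0.18 (SE, adjusted p = 0.0434). SCEL, an envelope precursor, was not called in the unpaired fit but was with the dog as a block (-0.73, adjusted p = 0.0844 and 0.00592). FLG2 kept its call without any one dog, while LOR, KPRP, ASPRV1 and DMKN each lost it without dog 2838, 2839 or 2855. Their adjusted p reached 0.158 for LOR and 0.0803 for ASPRV1 without dog 2838, and 0.233 for KPRP and 0.209 for DMKN without dog 2855. ASPRV1 was lost without dog 2840 too, and KPRP and DMKN also without any of dogs 2840, 2841, 2845, 2847 and 2853. KPRP was lost under both other normalizations as well (0.0568 and 0.0563), and DMKN under scaling to the 75th percentile (0.0608).

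Among 4 keratins KRT77, a suprabasal keratin, fell by 1.20 ± 0.29 (SE, adjusted p = 0.0329), from a saline median of 9.96 (9.08 to 10.53) to 8.30, 8.30, 9.21, 8.70 and 9.11. It was lost without dog 2838, 2839, 2840 or 2855 (0.215 without dog 2838). Of 7 desmosome and tight junction genes none lay above 0, with a median of -0.20, and CGN, which encodes cingulin of the tight junction, fell by 0.72 ± 0.16 (SE, adjusted p = 0.0185). A dimmer probe of CGN had a difference of -0.39 and was not called (0.223). CGN was lost without dog 2838, 2839, 2840 or 2855 (0.104 without dog 2855), with the slide in the model (0.0615) and under normexp with quantile scaling (0.0544). The 7 epidermal lipid genes had a median of -0.40 with no call and 4 at an unadjusted p below 0.05. The 7 dermal matrix genes had a median of 0.03 and no call, with 2 at an unadjusted p below 0.05, EMILIN1 (0.53) and LTBP1 (0.51).

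**Figure D2:**
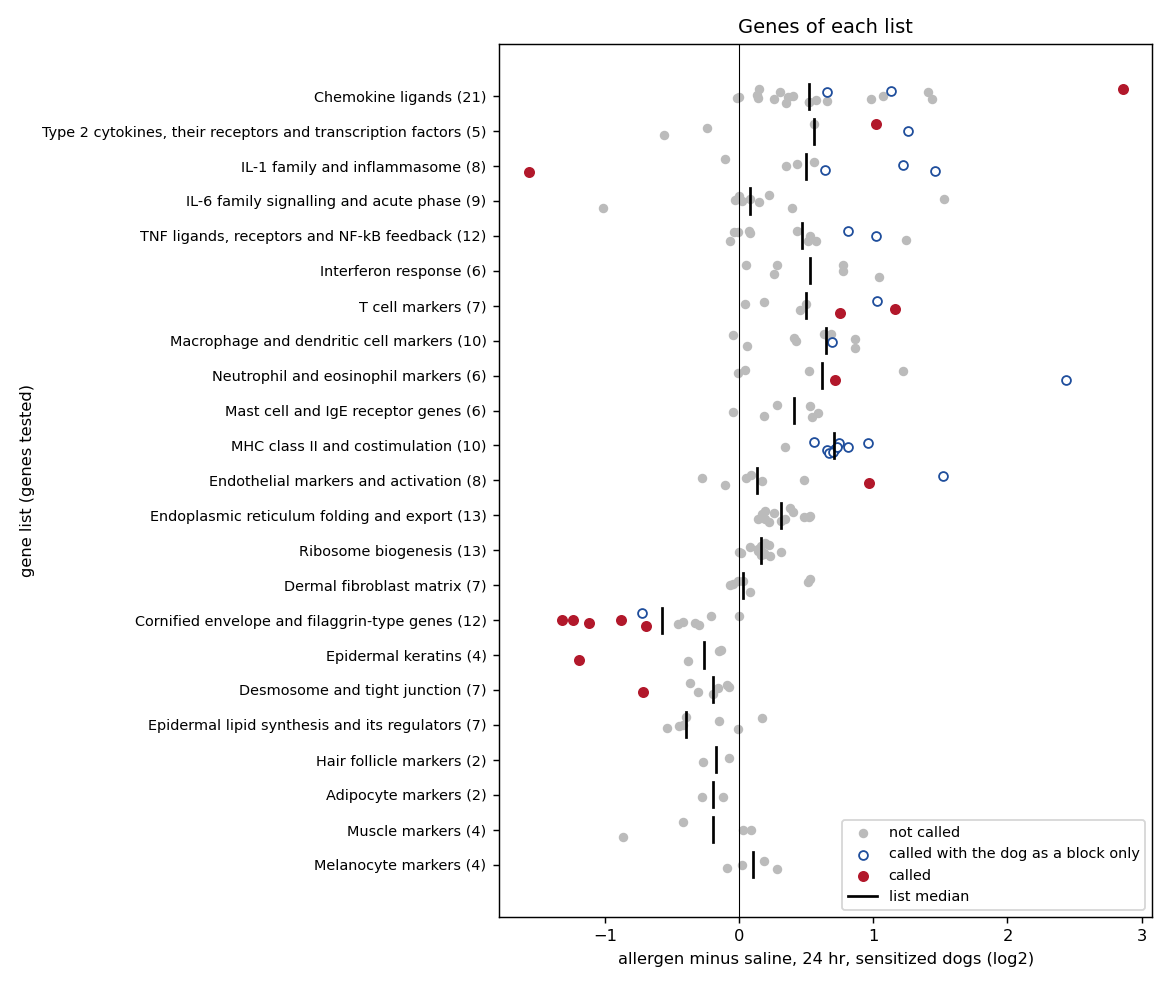
Log2 difference, allergen minus saline at 24 hr in sensitized dogs, of the members of each gene list (1 point per gene, called members marked). Members of the MHC class II list all lie above 0 (median 0.70) and members of the cornified envelope list all at or below 0 (median -0.58).

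The largest fall of a named gene was that of AOX4, an aldehyde oxidase labelled AOH2 in older annotation. The allergen sites of dogs 2838, 2840, 2841, 2853 and 2855 gave 9.42, 10.16, 7.88, 9.87 and 7.07, all below the lowest of the saline sites (10.60, median 10.90, highest 11.82). AOX4 fell by 2.24 ± 0.43 (SE), or 4.71-fold (adjusted p = 0.00392, limma). Untreated skin held 11.27 to 12.88. Among 8 oxidizing enzymes (median -0.06) AOX4 was the only one called lower, and FMO2, a flavin monooxygenase, was called with the block (-0.84, adjusted p = 0.00605). IL37, an anti-inflammatory member of the IL-1 family made by keratinocytes, fell by 1.57 ± 0.29 (SE, adjusted p = 0.0033). Its allergen values were 10.00, 12.18, 10.37, 9.95 and 10.25 against 11.10 to 12.88 at the saline sites, and dog 2840 showed no fall (0.01). AOX4 was kept without any one dog, and IL37 was lost without dog 2855 (adjusted p = 0.0525).

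FST, which encodes follistatin, an antagonist of activins, fell by 0.87 ± 0.16 (SE, adjusted p = 0.00204) without overlap, and 2 of its 4 probes were called. PIK3IP1, an inhibitor of PI3 kinase, fell 2.00-fold (adjusted p = 0.00459). ACSBG1, an acyl-CoA synthetase, and PITPNM3, a phosphatidylinositol transfer protein, fell by 0.77 and 0.86 (adjusted p = 0.00626 and 0.0109). FST was kept without any one dog. The others were lost without dog 2855 (adjusted p = 0.122 for ACSBG1), PIK3IP1 also without dog 2841 (0.074) and PITPNM3 also without dogs 2838 (0.13) and 2840 and with the slide in the model (0.0572).

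Other called named genes lay outside the rule for named genes. Among the higher ones were GK2, NMB, GPR98, GK, BPI, TNFSF12-TNFSF13, CBR3, TCN1, SYNGR2, SLC46A3, MATK, SLAMF6 and TMEM90B, from 0.96 down to 0.63 on the log2 scale. TCN1, SYNGR2 and SLAMF6 were well above background on 2 of 6 saline arrays each and passed the filter through the allergen sites alone, so their differences have no exact size and their p no support of its own. Lower were SMPD3, KIAA1671, NRTN, TMEM59, OTUD1, PRNP and DAAM1, from -0.74 to -0.60. GK and GK2 are closely related, so that their probes may report the same transcript. Among the larger changes of unnamed probes were rises of 3.54 for ENSCAFT00000038755 (adjusted p = 0.0453) and of 3.50 for TC59367 (0.00113), and a fall of 1.33 for DN425745 (0.00726).

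Lists with small shifts in 1 direction were seen for housekeeping functions. All 13 genes of endoplasmic reticulum folding and export lay above 0 (median 0.31), and SEC61B, SDF2 and SDF2L1 passed the adjusted p (0.00726, 0.0109 and 0.0391) but not 1.5-fold. Of the 13, 10 stand in the study's table, chosen on these arrays, and of the 13 ribosome biogenesis genes 12 do. The 13 ribosome biogenesis genes had a median of 0.16 with 1 unadjusted p below 0.05, and 3 genes often used as references had a median of 0.21. Other cell types of skin showed no call: hair follicle (2 genes, median -0.18), adipocyte (2, -0.20), muscle (4, -0.19) and melanocyte markers (4, 0.10) had no unadjusted p below 0.05. The list medians kept their sign under scaling to the 75th percentile and under normexp with quantile scaling, while with all 60 arrays those of ribosome biogenesis (-0.01), matrix proteases (-0.04) and melanocyte markers (-0.09) turned negative. Under normexp the medians were 0.34 for chemokines, 0.20 for chemokine receptors, 0.30 for the IL-1 family and 0.19 for Fc gamma receptors. Those of the type 2 list and of neutrophil and eosinophil markers were 0.29 and 0.32 under normexp and 0.99 and 1.22 under the 75th percentile.

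The dogs differed in how far they moved. Over the 83 called higher probes, which were chosen by these same values, the median pair difference was 1.05, 0.67, 0.73, 0.69 and 1.29 in dogs 2838, 2840, 2841, 2853 and 2855. Over the 46 lower ones it was -1.04, -0.69, -0.64, -0.42 and -0.91. Dogs 2838 and 2855 thus had the largest medians on both sides. Fewest probes were called without dog 2855 (34), then without dog 2838 (55) and without dog 2839 (58), which gave no allergen array used here. Whether the size of the response accounts for this was not tested. The cornified envelope list had medians of -0.71, -0.44, -0.54, -0.22 and -0.68 in the same order.

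**Figure D3:**
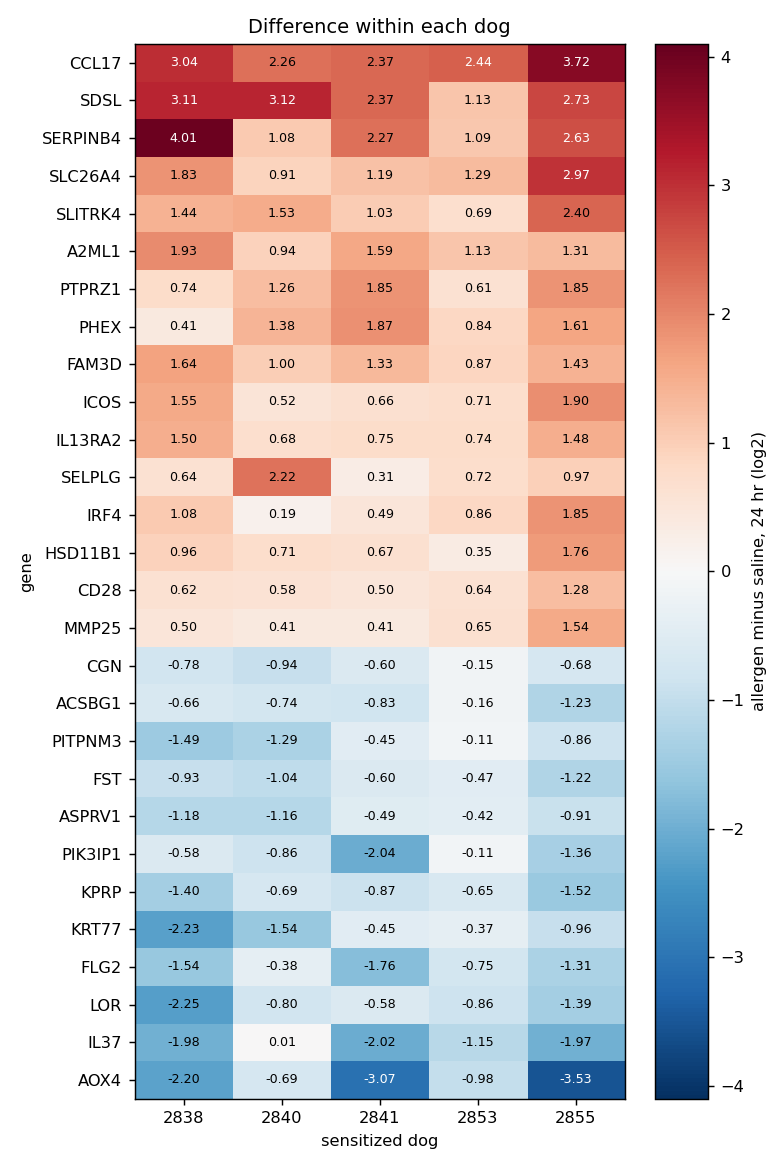
Difference between allergen and saline site at 24 hr within each dog (columns) for the 28 called genes named by the rule (rows), in log2 units (colour and printed value). Every cell has the direction of its gene's call except IL37 in dog 2840 (0.01). For the largest rises and falls the naming rule required this, and the other genes were called on these same arrays. The agreement between dogs is therefore not independent evidence. Dogs 2838 and 2855 have the largest medians over the called higher probes, 1.05 and 1.29.

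The response was set against that of nonsensitized dogs at 24 hr. Of the 28 called genes named by the rule, 25 differed between the dogs, by the test of the difference of the 2 responses in the same limma model, while 471 of all probes (1.07%) were called in that test. A2ML1 and MMP25, both among the 25, had passed the filter through the allergen sites alone. The 28 genes were chosen on the sensitized response, which enters this difference, and most by the study on the same interaction, so the count is a description. CCL17, SLITRK4 and LOR did not pass (adjusted p = 0.111, 0.0739 and 0.0612). In the nonsensitized dogs the 28 differences lay between -1.19 and 0.54, 23 of them with the opposite sign, which a choice of genes on the difference of responses favours, and only that of IL13RA2 was called. There, IL13RA2 fell under allergen (7.23 against 8.41 under saline, difference -1.19, adjusted p = 0.00355), so that the responses differed by 2.21 (adjusted p = 0.00124). AOX4 responses differed by -2.77 (0.0123), SDSL by 2.73 (0.00754) and FLG2 by -1.41 (0.0178). Without dog 2855 the 471 fell to 16, without dog 2802 to 52 and without dog 2800 to 53.

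At 6 hr the sensitized dogs, on other arrays of the same animals, showed the same sign as at 24 hr for all 28 genes, and none was called (lowest adjusted p = 0.0575, for FST). Each difference was smaller than at 24 hr, which the choice of genes on the 24 hr difference favours. The change from 6 hr to 24 hr itself was called for 12 probes (0.0272%), 2 of the 28 genes among them. SERPINB4 differed by 0.08 at 6 hr, a change of 2.09 (adjusted p = 0.0442). For A2ML1 (adjusted p = 0.00919) the change has no exact size and its p no support of its own, as its 24 hr saline sites were not well above background. Without dog 2838, 2839, 2841 or 2855 no probe was called in this test. S100A8 and SELE had 6 hr differences of 2.28 and 2.47, near or above their 24 hr values. PTX3, a pattern recognition molecule made in early inflammation, differed by 2.48 at 6 hr and by -1.02 at 24 hr, a change of -3.50 (adjusted p = 0.0401).

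**Figure D4:**
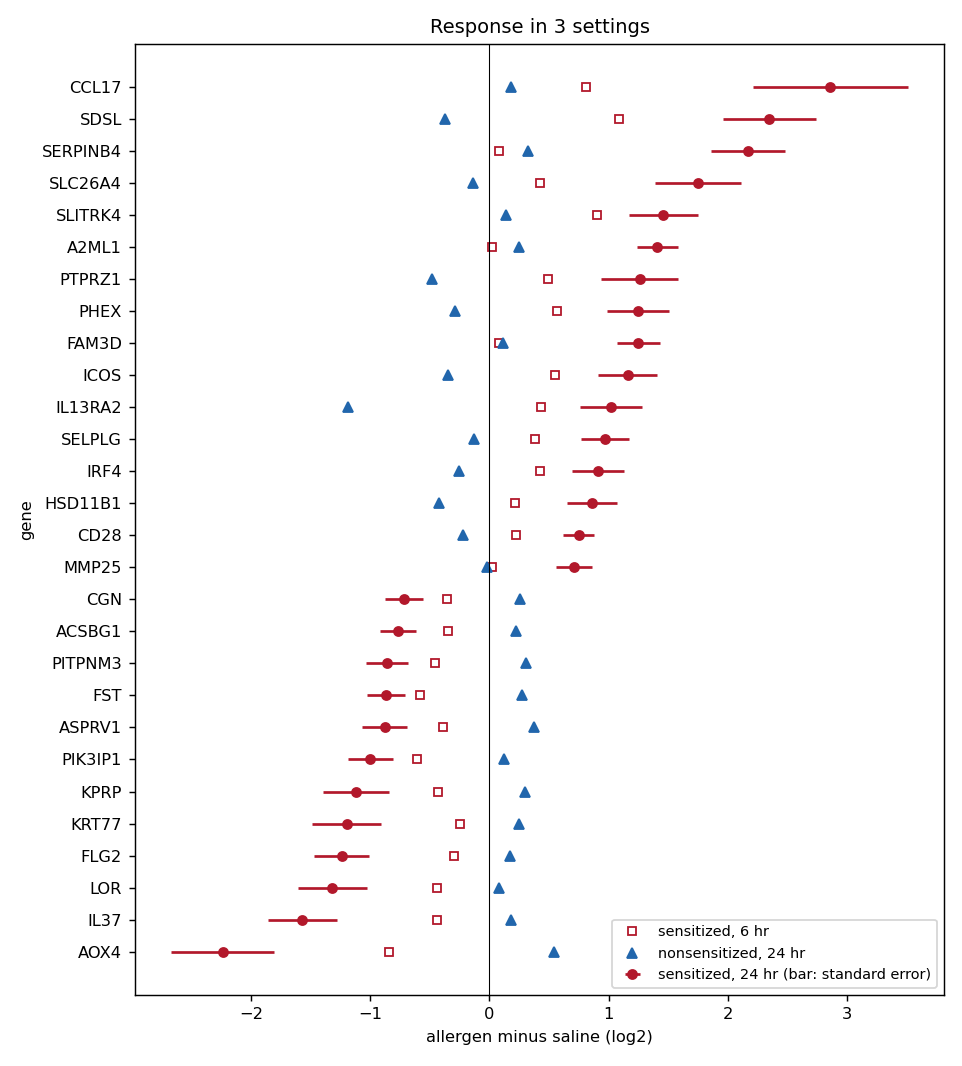
Log2 difference, allergen minus saline, of the called named genes in sensitized dogs at 24 hr, sensitized dogs at 6 hr and nonsensitized dogs at 24 hr. The nonsensitized differences lie between -1.19 and 0.54, and all 6 hr differences are smaller than those at 24 hr.

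The 24 hr arrays lay on 4 slides, and slide 3 held 3 allergen arrays (dogs 2838, 2853 and 2855) and 3 saline arrays (dogs 2841, 2853 and 2855). On this slide alone CCL17 differed by 3.20, SDSL by 1.97, SERPINB4 by 2.52, AOX4 by -2.01, FLG2 by -1.30, IL13RA2 by 1.31, IL37 by -1.83 and LOR by -1.30. With 6 arrays no probe was called there, while 3929 had an unadjusted p below 0.05. Of the 24 hr arrays used, only the allergen array of dog 2840 shared a slide with untreated arrays, and no saline array did, so slide and time cannot be told apart where untreated levels are set against saline levels.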

How the data were processed

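RNA of skin biopsies was hybridized to one-colour Agilent canine arrays. The authors read the scans with Feature Extraction (10.7.3.1, per the file headers) and deposited a processed signal intensity per spot, background-subtracted and not scaled between arrays. Outlier spots were set to missing (4498 values). A spot was kept (45431 of 61657, 73.7%) where the scanner software marked it as well above background in 5 or more arrays of the allergen or the saline side. Intensities were normalized by variance stabilization, reimplemented since the vsn package was not installed and tested on simulated data, and spots of a probe averaged.

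limma 3.58.1 (R 4.3.3, statmod 1.5.0) fitted 10 group means on 59 arrays, unpaired as in the study, with Benjamini-Hochberg adjustment over 44196 probes. In a simulation of the 24 hr comparison on 44196 probes, 86% of 2-fold and 97% of 4-fold changes were recovered with 4 false calls. Its noise was independent between arrays and between probes, with no effect of dog or slide. These figures are therefore not the error rates of the real comparison. Labels tie sites to dogs, so the dog as a block was an alternative. Residuals of both sites of 1 dog correlated at 0.057, 0.326, 0.139, 0.284 and 0.436, those of different dogs at -0.345 to 0.572, so that the pairing rests on the labels. The number of arrays limits the precision.

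Probes were named through RefSeq, then through the study's supplementary table, some of whose symbols are human, by sequence match. A gene is reported by its brightest probe. Named are the 10 largest rises and falls called and equal in direction in all 5 pairs, 4 markers (SDSL, IL13RA2, AOX4, FLG2), and per list up to 4 called members or the 2 with the smallest p. The members and lists were chosen with earlier results of these data known. Sebaceous gland and red cell lists had no tested member. For A2ML1 the bound used, per array, the higher of its own signal and the lowest signal above background. Some genes are not reported here. Promoter motifs were not analysed here, since no sequence was given. Alternatives were all 60 arrays, 2 other normalizations, 3 other filters, blocks for dog or slide, other sample sets and thresholds, and each dog left out. Python 3.11.15 made tables and figures.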

Additional observations from a re-analysis of the deposited data

Results flagged for a closer look

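In 17 of 148 groups of 5 or 6 sites, 1 dog lay far from the others, by a gap that took more than the 95% critical share of the group's range, where chance alone gives about 1 in 20. Of the 17, 9 were the saline site of dog 2853, in each case the highest, with gaps of 0.79 of the range for CCL17, 0.78 for ICOS, 0.78 for DES, 0.75 for HLA-DOA, 0.74 for CTLA4, 0.69 for IL13RA2, 0.68 for IL31, 0.66 for CD74 and 0.63 for IL13. Another 3 were the saline site of dog 2838, the highest for PHEX (0.72) and the lowest for SOX9 (0.74) and LEP (0.70). The saline site of dog 2855 was the lowest for LTBP1 (0.68) and CD209 (0.64), and that of dog 2840 for FAM3D (0.71). The allergen site of dog 2840 was the lowest for CGN (0.86) and the highest for IL37 (0.81). Muscle desmin, DES, was 9.44 at the saline site of dog 2853 and 5.49 to 6.37 at the other saline sites.

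The response at 24 hr differed between sensitized and nonsensitized dogs, by the limma test of the difference, for 43 of the genes looked at here, 67 named by the rule and 7 outside it. Over all probes this test called 1.07%, and other named genes that passed it are not listed. Larger or more positive in the sensitized dogs were PTX3 by 3.71 on the log2 scale, SDSL by 2.73, SELE by 2.46, IL13RA2 by 2.21, SLC26A4 by 1.89, SERPINB4 by 1.86, FCGR2B by 1.83 and PTPRZ1 by 1.74. For PTX3, nonsensitized dogs had a difference of -4.73 and sensitized dogs one of -1.02. PHEX followed with 1.55, ICOS with 1.5, PTGES with 1.35, CFP with 1.31, CD209 with 1.29, HSD11B1 with 1.28, IRF4 with 1.17, A2ML1 with 1.16, EMILIN1 with 1.16, FAM3D with 1.14, SELPLG with 1.09, FCGR3A with 1.05 and IL17F with 1.00. Differences below 1 were found for HLA-DOA (0.98), CD28 (0.97), SDF2 (0.90), MMP25 (0.74), SEC61B (0.71), IL31 (0.71), CXCR6 (0.70), FBL (0.63) and URB1 (0.60). A2ML1, IL17F and MMP25 passed the filter through the sensitized allergen sites alone. Their differences have no exact size, and their tests give no support of their own.

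More negative in the sensitized dogs were AOX4 by -2.77, IL37 by -1.75, KRT77 by -1.45, KPRP by -1.42, FLG2 by -1.41, ASPRV1 by -1.25, PITPNM3 by -1.17, FST by -1.14, PIK3IP1 by -1.13, HPGD by -1.0, ACSBG1 by -0.99, CGN by -0.98 and DMKN by -0.95. The response also differed between 24 hr and 6 hr in sensitized dogs for SERPINB4 (2.09), A2ML1 (1.39) and PTX3 (-3.50). The values of A2ML1 have no exact size, since it was not well above background at the 24 hr saline sites. Many of these genes were chosen by the study on the same difference.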

How the results depend on the processing

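The 28 called genes named by the rule kept their direction under every alternative that tested them (23 of them under the strictest filter). SDSL, SERPINB4, A2ML1, FAM3D, AOX4, FLG2 and FST kept their calls without any one dog, whereas 7 of the 28 calls were kept without dog 2855, 16 without dog 2838, 17 without dog 2839 and 5 with the arrays of the 2 groups alone. A2ML1 and MMP25 are among the 28 but passed the filter through the allergen sites alone. Their calls, wherever counted here, give no support of their own. Probes called at 24 hr numbered 129, and 797 with all 60 arrays (363 higher, 434 lower), 494 with the dog as a replicate block, 376 with the slide as a fixed block (175 as a random block), 252 at an unadjusted p below 0.002 and 246 with no fold limit. They numbered 25 with the dog as a block on the 10 paired arrays alone, 18 with only the arrays compared, 7 with treat and 0 on slide 3 alone (3929 at an unadjusted p below 0.05, limma). Leaving out 1 dog gave 34 to 158. Scaling to the 75th percentile changed the higher and lower calls from 83 and 46 (64.3% higher) to 59 and 56 (51.3%). The difference of responses to nonsensitized dogs had 471 calls, and 823 with all 60 arrays, 1631 with the replicate block, 1090 with the slide as a fixed block (666 as a random block), 708 at the unadjusted p, 229 with no filter and 0 with treat (6452 at an unadjusted p below 0.05, limma). Without 1 dog it gave 16 to 802, with 16 without dog 2855, 52 without dog 2802, 53 without dog 2800, 235 without dog 2847, 242 without dog 2839, 268 without dog 2845 and 802 without dog 2704, and the split under the 75th percentile was 190 to 186 (50.5% higher). The change from 6 hr to 24 hr had 12 calls, and 55 with the replicate block, 38 and 19 with the slide as a fixed and a random block, 132 at the unadjusted p, 3 with no filter, 0 with treat and 0 with the arrays compared alone (1963 at an unadjusted p below 0.05, limma). Without 1 dog it gave 0 to 23, with 0 without dog 2838, 2839, 2841 or 2855. The causes were not tested. The dog as a block in the joint fit ended no call of the 28 genes, while on the 10 paired arrays alone it kept 4 of the 28 (CCL17, SDSL, A2ML1 and FAM3D), with fewer arrays in the fit. Scaling to the 75th percentile kept 23 of the 28, normexp with quantile scaling 22, and no filter on dim probes 19 (PTPRZ1, PHEX, KRT77, KPRP, IL13RA2, IRF4, MMP25, SELPLG and HSD11B1 lost), with 94 probes called in all. Probes near background, such as IL17F and A2ML1 at the saline sites, limit the size of their differences. Promoter motifs were not run.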

Other observations

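The saline site of dog 2853 stood above the saline sites of the other sensitized dogs in several immune genes, and its untreated skin did so in some of them. Untreated ICOS was 6.72 in this dog, against 5.64 to 6.20 in the other 5, untreated CTLA4 7.75 against 5.85 to 7.00, and untreated CD74 8.53 against 7.58 to 8.18. CCL17 showed the widest gap, with 10.78 against 6.97 to 7.37. The difference between its allergen and saline sites (2.44 for CCL17) was nevertheless within the range of the other dogs.

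SERPINA3, an acute phase protease inhibitor, differed by 3.15 at 6 hr and by 1.53 at 24 hr in sensitized dogs (adjusted p = 0.23 at 24 hr), with a pair difference above 0 in 5 of 5 dogs at 24 hr.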
